A study of Mus musculus with 26 samples.

Results

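Nat8l and 5 genes of the aspartate pathway that feed it or break its product down were examined in inguinal subcutaneous white adipose tissue (scWAT) of mice that lacked the transcription factor ChREBP or its isoform ChREBPβ. The members were found by gene name in the array files, where Nat8l, Aspa, Got1, Got2, Slc25a12 and Slc25a13 stood for 15 of 56605 probes, and they are 6 of 37074 gene names. Of the 15 probes, 13 passed the filter on dim spots, among 38832 probes in all. Nat8l itself was chosen by its lower level in both KOs in these same arrays, so its KO differences are given as a description and without a test, whereas its partners were tested.

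Total ChREBP KO mice (n = 7) carried a null allele of Mlxipl, the gene of ChREBP, and lacked both isoforms, ChREBPα and ChREBPβ. ChREBPβ KO mice (n = 5) had lost exon 1b of Mlxipl by CRISPR/Cas9 and lacked only the shorter isoform, which is made from a second promoter. Both deletions were present in every tissue from conception. Each line had WT mice of its own (n = 7 in each). The paper calls the WT controls of the ChREBPβ line littermates, and does not say so for the total line. All 26 animals were male mice on a C57BL6/J background, taken from several litters, and no age is given in the sources used here. All of them, WT included, were fasted for 24 h and refed for 18 h with food and 20% glucose water. Each mouse gave 1 single-colour array, so a replicate is a mouse. Expression is given as log2 intensity, on which a difference of 1 is a doubling, and levels were compared between groups at the same probe only.

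Nat8l encodes the enzyme that joins acetyl-CoA and aspartate to N-acetylaspartate (NAA), and Aspa encodes aspartoacylase, which splits NAA back into acetate and aspartate. NAA is best known from neurons, and adipocytes make it as well. Aspartate for this reaction is formed from oxaloacetate and glutamate by the aspartate aminotransferases, GOT2 in mitochondria and GOT1 in the cytosol. The aspartate/glutamate carriers encoded by Slc25a12 (aralar) and Slc25a13 (citrin) export it from mitochondria, and all 4 proteins belong to the malate-aspartate shuttle, which carries reducing equivalents into mitochondria.

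The probes that carry the results are shown so that each value can be tied to the transcript stretch it reports. The first 30 of 60 bases of the brightest probe are printed 5′ to 3′ for Nat8l, for Aspa, and for the aminotransferases.
Nat8l: acagtggtaggtctcactgttgtggtttgt
Aspa: ctggagatcctgtgtttgtgtctcttgatg
Got1: cggtatttgctcttgtgatatgtggcacat
Got2: gagttacataagaatggagagcataggttt
In mouse genome build mm9, as the array annotation gives it, the Nat8l probe lies at chr5:34348343-34348402 on the plus strand. The others lie on minus strands, Aspa at chr11:73119051-73119110, Got1 at chr19:43574278-43574337 and Got2 at chr8:98388339-98388398. Whether they fall in coding sequence or in untranslated regions was not analysed here. The other pair of Got1 probes, A_55_P2740265 and A_66_P120058, are printed whole because they are not independent. The 50 bases in capitals are common to both, and the first of them covers 2294 bases of the genome, from 43579124 to 43581417 on chromosome 19, with its 60 bases.
A_55_P2740265: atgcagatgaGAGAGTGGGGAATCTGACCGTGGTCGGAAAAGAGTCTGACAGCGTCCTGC
A_66_P120058: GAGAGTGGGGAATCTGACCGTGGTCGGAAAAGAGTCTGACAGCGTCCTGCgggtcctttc

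The arrays had a median spot intensity between 59 and 107.5 over a median background of 15 to 23. The share of spots well above background ran from 70.2% to 76.5%, and 0 spots were saturated. All 13 tested probes of the 6 genes were well above background on all 26 arrays, while 1 probe of Slc25a12 and 1 of Slc25a13 were so on 0 arrays and were not tested. The brightest Mlxipl probe, A_55_P2119957, gave a log2 difference of −2.29 in total ChREBP KO mice and −1.52 in ChREBPβ KO mice. In both lines every KO array lay below every WT array at this probe. This was also so at A_55_P2728555 (−0.90, adjusted p = 2.25e-06, and −0.68, adjusted p = 0.054). The remaining Mlxipl probe, A_55_P2045158, was not called in either KO (−0.13, adjusted p = 0.158, and 0.04, adjusted p = 0.97) and its arrays overlapped. All 13 adipocyte markers were well above background on every array. Other cells also moved with the groups. The summed lymphocyte score (mean log2 intensity of 15 markers) was 12.14 in WT mice of the total line, 9.81 in total ChREBP KO mice, 7.60 in WT mice of the ChREBPβ line and 7.77 in ChREBPβ KO mice, and all 15 markers were called lower in total ChREBP KO mice. The skeletal muscle score was 9.94 in total ChREBP KO mice (range 6.17 to 12.35) and 7.43 in WT mice of that line (range 5.99 to 11.59). In the ChREBPβ line this score was 9.04 in KO mice and 8.89 in WT mice. Of its 15 markers, 4 were called higher in total ChREBP KO mice, and Ckm, Actn3, Myh4 and Mb were not above background on all arrays. In whole tissue, fewer cells of a type and less RNA per cell cannot be told apart.

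Nat8l was highest in both WT groups, lower in ChREBPβ KO mice and lowest in total ChREBP KO mice. In WT mice of the total line its log2 intensity ran from 12.79 to 13.53 with a median of 13.03, and in total ChREBP KO mice from 11.20 to 11.93 with a median of 11.59. These groups did not overlap. In WT mice of the ChREBPβ line it ran from 12.57 to 13.67 with a median of 13.21, and the ChREBPβ KO arrays read 11.95, 12.09, 12.33, 12.42 and 12.78. A single ChREBPβ KO mouse, replicate 1 at 12.78, lay above 1 WT mouse, replicate 7 at 12.57, and the other 4 KO mice lay below every WT mouse. The means were 13.11 ± 0.25 (SD, n = 7) and 11.56 ± 0.24 (SD, n = 7) in the total line, so that the level in total ChREBP KO mice was 34.3% of WT, a log2 difference of −1.55 (SE 0.15). In the ChREBPβ line the means were 13.19 ± 0.37 (SD, n = 7) and 12.31 ± 0.32 (SD, n = 5), and ChREBPβ KO mice held 54.4% of the WT level, a log2 difference of −0.88 (SE 0.17). Since these differences selected the gene, no test is attached to them or to their difference of 0.67 (SE 0.22).

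The Nat8l difference was also split by scan day, as a description only. The same arrays had chosen the gene for this difference, so a like sign on both days lends it no support. Among arrays scanned on day 1 it was −1.69 in total ChREBP KO mice and −0.62 in ChREBPβ KO mice, and on day 2 it was −1.44 and −1.05. With the thermogenic adipocyte score as a covariate it was −1.24 in total ChREBP KO mice. Over 20 alternative settings, the log2 difference ranged from −1.69 to −1.24 in total ChREBP KO mice and from −1.05 to −0.62 in ChREBPβ KO mice.

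The rule did not use the contrast of both WT groups, and here Nat8l did not pass the test. WT mice of the ChREBPβ line differed from WT mice of the total line by 0.08 (SE 0.15, 95% confidence interval −0.23 to 0.40, limma adjusted p = 0.681). In this contrast 45.4% of all probes were called. On day 1 alone it was −0.13.

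**Figure D1:**
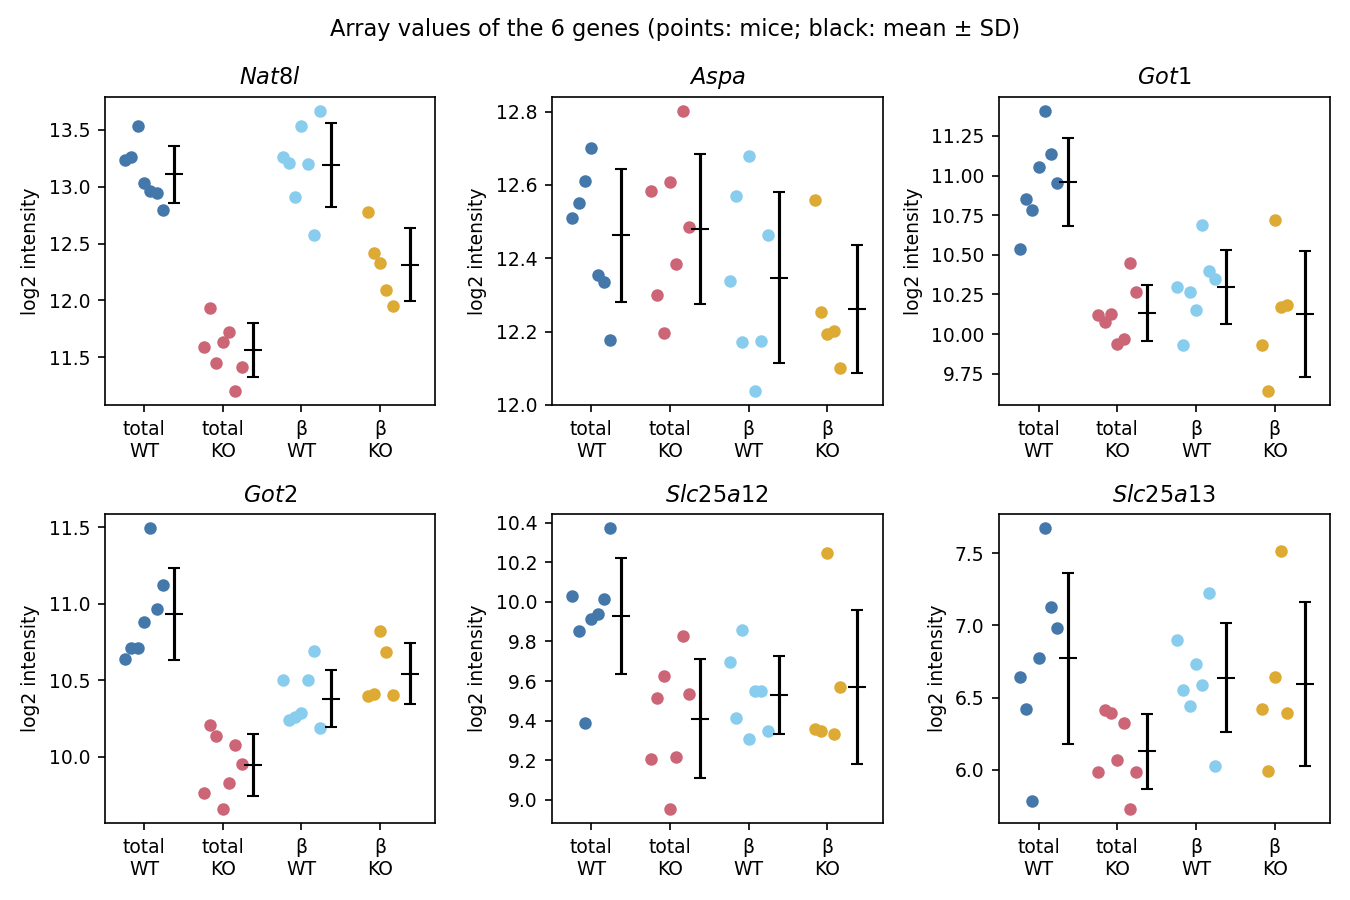
Log2 intensity (y axis) of the brightest probe of each gene in the 4 groups (x axis), with 1 point per mouse and the mean ± SD in black; the y axes differ between panels and do not start at 0. Nat8l is lower in both KO groups, with 11.20 to 11.93 in total ChREBP KO mice against 12.79 to 13.53 in WT, whereas Got1 and Got2 are highest in WT mice of the total line and Aspa lies at a like level in all groups.

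Aspa, the enzyme that cleaves NAA, did not follow Nat8l. In the total line its brightest probe ran from 12.18 to 12.70 in WT mice (median 12.51) and from 12.20 to 12.80 in total ChREBP KO mice (median 12.48). In the ChREBPβ line WT mice ran from 12.04 to 12.68 (median 12.34), and ChREBPβ KO arrays read 12.10, 12.19, 12.20, 12.25 and 12.56. The groups overlapped in both lines. The log2 difference was 0.02 (SE 0.11, adjusted p = 0.907) in total ChREBP KO mice and −0.09 (95% confidence interval −0.32 to 0.15, adjusted p = 0.94) in ChREBPβ KO mice, and the sign of the former turned under 5 of 20 alternative settings. Its second probe, A_55_P2719684, gave 0.16 (adjusted p = 0.599) and −0.24 (adjusted p = 0.904). Between both WT groups the probes disagreed, with −0.11 (adjusted p = 0.401) at the first and 0.62 (SE 0.23, adjusted p = 0.0271) at the second.

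Both aminotransferases and both carriers fell in total ChREBP KO mice, and Aspa did not pass the test. Of 12 tested probes of the 5 partner genes, 9 were called, all of them lower and from 4 genes, Got1, Got2, Slc25a12 and Slc25a13, while 19.5% of all probes were called lower and 45.5% in either direction. The median log2 difference of the 12 probes was −0.53, against 0.05 over all tested probes. KO arrays were apart from WT arrays at 2 of the 12 probes, 1 of Got1 and that of Got2, and total ChREBP KO lay below WT on every array at 4.51% of all probes. In ChREBPβ KO mice, by contrast, 0 of 12 probes were called, and 0 were below an unadjusted limma p of 0.05. The median there was −0.04, and 0.0386% of all probes, 15 in number, were called.

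Got2, the mitochondrial aminotransferase, showed the largest difference of the 5 partners in total ChREBP KO mice. In WT mice of the total line it ran from 10.64 to 11.49 (median 10.88) and in total ChREBP KO mice from 9.66 to 10.21 (median 9.95). The means of 10.93 ± 0.30 (SD, n = 7) and 9.95 ± 0.20 (SD, n = 7) gave a log2 difference of −0.99 (SE 0.12, adjusted p = 3.12e-07), or 50.5% of WT. In WT mice of the ChREBPβ line Got2 ran from 10.19 to 10.69 (median 10.29), and ChREBPβ KO arrays read 10.40, 10.40, 10.41, 10.68 and 10.82. There the KO difference was 0.16 (95% confidence interval −0.11 to 0.43, adjusted p = 0.85). The KO effects differed by 1.15 (SE 0.18, adjusted p = 5.36e-05). Got2 was called in total ChREBP KO mice under all 20 alternative settings, with −0.65 on scan day 1 and −1.24 on day 2.

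Got1, the cytosolic aminotransferase, ran from 10.53 to 11.41 (median 10.95) in WT mice of the total line and from 9.94 to 10.45 (median 10.12) in total ChREBP KO mice. The ranges were separate, and the log2 difference was −0.83 (SE 0.14, adjusted p = 3.48e-05), or 56.4% of WT. The pair of probes with 50 shared bases gave −0.55 (adjusted p = 0.000679) and −0.54 (adjusted p = 0.000756), and at both KO and WT arrays overlapped. In WT mice of the ChREBPβ line Got1 ran from 9.93 to 10.69 (median 10.30), and ChREBPβ KO arrays read 9.64, 9.93, 10.17, 10.18 and 10.72, a difference of −0.17 (95% confidence interval −0.48 to 0.14, adjusted p = 0.882). The KO effects differed by 0.66 (SE 0.21, adjusted p = 0.0233). Within scan days the difference in total ChREBP KO mice was −0.61 and −0.98.

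Of the carriers, Slc25a12 ran from 9.39 to 10.37 (median 9.94) in WT mice of the total line and from 8.95 to 9.83 (median 9.51) in total ChREBP KO mice, a difference of −0.52 (SE 0.15, adjusted p = 0.00636) with overlapping arrays. Of its 5 tested probes 4 were called lower, by 0.36 to 0.57, and A_55_P2731241 was not (−0.16, adjusted p = 0.177). In ChREBPβ KO mice its 5 arrays read 9.33, 9.35, 9.36, 9.57 and 10.25 against 9.31 to 9.86 in WT, a difference of 0.04 (95% confidence interval −0.30 to 0.38, adjusted p = 0.991). Without the mouse at 10.25, replicate 4, this difference was −0.13. In total ChREBP KO mice the Slc25a12 call was lost on scan day 1 (−0.31, adjusted p = 0.315), with slide as a fixed block (−0.46, adjusted p = 0.178) and with the muscle and lymphocyte scores as covariates (−0.52, adjusted p = 0.0559).

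Slc25a13 ran from 5.79 to 7.67 (median 6.77) in WT mice of the total line and from 5.73 to 6.41 (median 6.07) in total ChREBP KO mice, all of them inside the lower part of the WT range or just below it. Its difference of −0.64 (SE 0.23, adjusted p = 0.0254) was −0.02 among the arrays of scan day 1 and −1.11 among those of day 2. The call was lost without WT replicate 6 (−0.49, adjusted p = 0.0739), without WT replicate 7 (−0.58, adjusted p = 0.0551) and without KO replicate 7 (−0.58, adjusted p = 0.0566). It was also lost with slide as a fixed block (−0.51, adjusted p = 0.346), with the muscle score (−0.55, adjusted p = 0.0883), with the muscle and lymphocyte scores (−0.25, adjusted p = 0.683) and with the thermogenic score (−0.91, adjusted p = 0.0501). The same was so without muscle-rich arrays (−0.60, adjusted p = 0.368), which left only 2 KO and 5 WT mice in the total line. ChREBPβ KO arrays read 5.99, 6.39, 6.42, 6.65 and 7.51 against 6.03 to 7.23 in WT, a difference of −0.05 (95% confidence interval −0.57 to 0.48, adjusted p = 0.993).

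Tests of the difference between both KO effects called 6 of the 12 partner probes, all with the higher value in the ChREBPβ line. In this contrast 22.5% of all probes were called, and 9.91% were called in that direction. They were the Got2 probe, all 3 Got1 probes and 2 of the 5 Slc25a12 probes. The brightest probes of Slc25a12 (0.56, adjusted p = 0.0724), Slc25a13 (0.60, adjusted p = 0.223) and Aspa (−0.10, adjusted p = 0.683) were not called. The count was 2 without ChREBPβ KO replicate 4, where Got1 was lost (0.51, adjusted p = 0.0597), and 1 among the arrays of scan day 1. Over all probes 7164 and 948 were called in these settings, against 8755 in the main fit.

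The aminotransferases and Slc25a12 differed between the WT groups as well. Of 13 tested probes 9 were called, 8 of them lower in WT mice of the ChREBPβ line, while 45.4% of all probes were called and 19.8% were called lower. Got1 was lower there by 0.66 (adjusted p = 0.000347), Got2 by 0.55 (adjusted p = 0.000453) and Slc25a12 by 0.40 (adjusted p = 0.0328). The arrays of the WT groups overlapped at all 13 probes. How many of all probes separated the WT groups was not counted, so this is a description only. The count was 6 without WT replicate 4 of the ChREBPβ line. Scan day 1 gave 3 calls and day 2 gave 8. Over all probes the calls went from 17644 to 16654 without that mouse, 7268 on day 1 and 13906 on day 2.

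Across all 4 groups the order of the levels therefore differed between genes. Got1 was highest in WT mice of the total line, and total ChREBP KO mice lay −0.16 (adjusted p = 0.401) from WT mice of the ChREBPβ line and 0.01 (adjusted p = 0.981) from ChREBPβ KO mice, so the lower 3 groups were not told apart. Got2 was lowest in total ChREBP KO mice, 0.43 below WT mice of the ChREBPβ line (a log2 difference of −0.43, adjusted p = 0.00677) and 0.60 below ChREBPβ KO mice (−0.60, adjusted p = 0.00132). For Slc25a12 and Slc25a13, total ChREBP KO mice did not differ beyond the spread from WT mice of the ChREBPβ line (−0.12, adjusted p = 0.578, and −0.51, adjusted p = 0.0968). These values compare animals of separate lines, and the line and the genotype cannot be told apart in them.

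**Figure D2:**
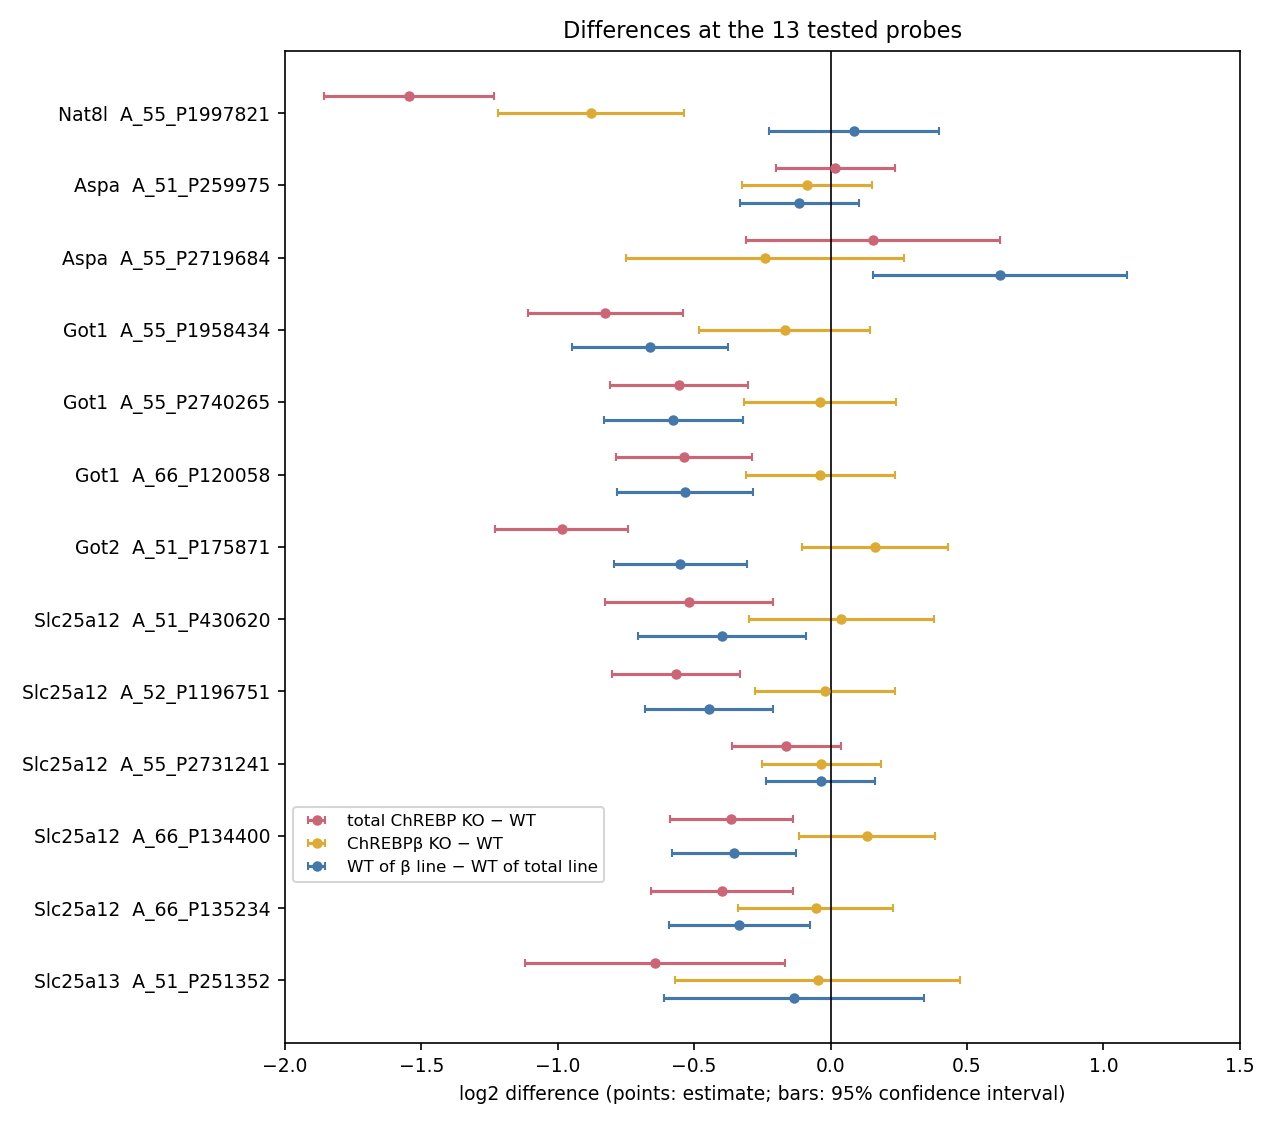
Log2 difference (x axis) at each of the 13 tested probes (y axis), with the estimate as a point and its 95% confidence interval as a bar, for total ChREBP KO against WT, ChREBPβ KO against WT, and the ChREBPβ line's WT against the total line's WT. Got1 lies at −0.83 and Got2 at −0.99 in total ChREBP KO mice while their ChREBPβ KO intervals span 0, and at both genes the contrast of the WT groups, at −0.66 and −0.55, lies below 0 too.

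Markers of other cells moved with these results. In total ChREBP KO mice, where the partners were lower, the lymphocyte score was 9.81 against 12.14 in WT, and the thermogenic adipocyte score was 11.20 (range 10.85 to 11.54) against 12.84 (range 11.40 to 13.56), with 4 of 8 markers called lower and 1 higher. WT mice of the ChREBPβ line had a thermogenic score of 10.61 (range 9.97 to 11.39), and ChREBPβ KO mice one of 10.18 (range 9.75 to 10.54). The adipocyte score was 16.58 (range 16.50 to 16.65) in total ChREBP KO mice against 15.84 (range 15.58 to 16.02) in WT, with 12 of 13 markers called higher. With the muscle and lymphocyte scores as covariates, the called partner probes fell from 9 to 4 in total ChREBP KO mice and the called probes from 9 to 0 between the WT groups. Over all 38832 probes the calls fell from 17667 to 5487 and from 17644 to 1245. Between the WT groups Got1 then stood at −0.69 (adjusted p = 0.207). Got2 stood at −0.25 (adjusted p = 0.604) and Slc25a12 at −0.11 (adjusted p = 0.853). With the thermogenic score as a covariate, the WT groups differed at 5 probes of the members and at 11039 of all probes. The Got1 and Got2 falls in total ChREBP KO mice were called under each of these covariates.

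Within groups, Slc25a12 and Got2 varied with the adipocyte markers. Deviations from the group means were correlated over the 26 arrays in 23 relations, tested by two-sided permutation within groups with Benjamini-Hochberg adjustment, and 4 passed by Pearson's r. Slc25a12 ran against the adipocyte score (r = −0.76, permutation p = 8.0e-05, adjusted p = 0.00184; rho = −0.69, adjusted p = 0.00399). Got2 did as well (r = −0.68, permutation p = 0.00078, adjusted p = 0.00897; rho = −0.71, adjusted p = 0.00399). Both had the same sign on scan day 1 (−0.84 and −0.46) and day 2 (−0.73 and −0.61), and without the 2 arrays farthest from the median of the adipocyte score r was −0.55 and −0.69. By group, r of Got2 was −0.93 in total ChREBP KO mice and −0.80 in WT mice of the total line. It was −0.81 in ChREBPβ KO mice and 0.075 in WT mice of that line, and r of Slc25a12 ran from −0.87 to −0.71. Slc25a12 also ran with the skeletal muscle score (r = 0.57, permutation adjusted p = 0.0416; rho = 0.59, adjusted p = 0.0144) and against the thermogenic score (r = −0.51, permutation adjusted p = 0.0451; rho = −0.63, adjusted p = 0.00399). Within scan days these were 0.56 and 0.69 with muscle, and −0.74 and −0.53 with the thermogenic score. Leaving out 1 mouse at a time, the muscle relation no longer passed in 10 of 26 cases and the thermogenic one in 14 of 26. The lymphocyte score was not among the 23 relations, so whether it varied along with these genes or with the adipocyte score was not tested.

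Nat8l passed in none of its 8 relations by r over all 26 arrays with quantile normalization. With 1 mouse left out it passed with Slc25a12 in 4 of 26 cases, and with Aspa, Got2 and Slc25a13 in 2 each. With Got1 r was −0.39 (permutation p = 0.0708, adjusted p = 0.134), with Got2 −0.44 (permutation p = 0.0273, adjusted p = 0.0822), with Slc25a12 −0.48 (permutation p = 0.0156, adjusted p = 0.0597) and with Slc25a13 −0.44 (permutation p = 0.0358, adjusted p = 0.0823). By rank the first 3 of these passed, with rho = −0.58 (permutation adjusted p = 0.0189), −0.53 (permutation adjusted p = 0.0306) and −0.50 (permutation adjusted p = 0.0353). They did not hold within both scan days for Got1 (r = 0.10 on day 1, −0.08 on day 2) or Got2 (0.27 and −0.45), and for Slc25a12 r was −0.60 and −0.25. With Aspa r was 0.43 (permutation p = 0.046, adjusted p = 0.0962), and with the thermogenic score 0.33 (permutation p = 0.11, adjusted p = 0.181). With scaling to the 75th percentile, Nat8l passed with Aspa, Slc25a12 and Slc25a13 in median intensity and in processed signal (lowest permutation adjusted p = 0.0176, 0.0191 and 0.0264), and with Got2 in processed signal only (permutation adjusted p = 0.0404).

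**Figure D3:**
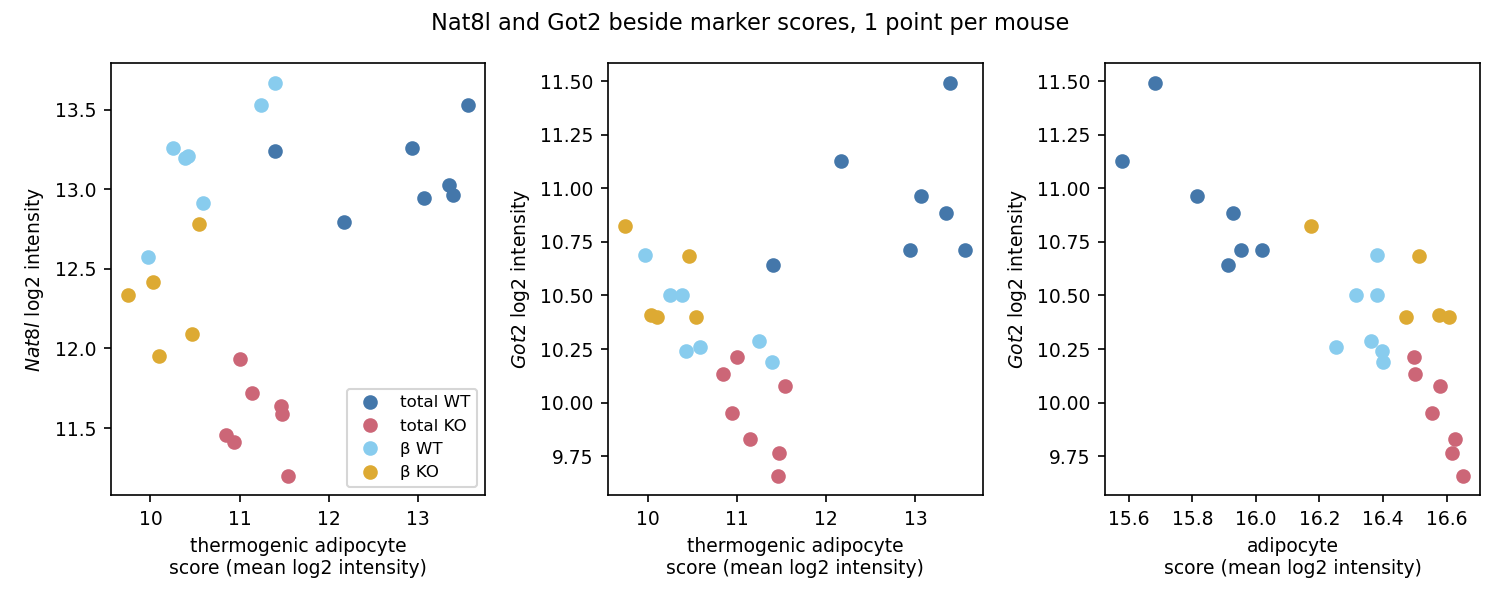
Log2 intensity of Nat8l (left) and Got2 (middle, right) on the y axes against the thermogenic adipocyte score (left, middle) and the adipocyte score (right), each a mean log2 intensity of its markers, with 1 point per mouse coloured by group. Total WT mice have the highest mean thermogenic score, 12.84, and Got2 is lower where the adipocyte score is higher within each group but WT mice of the ChREBPβ line; the within-group r of Got2 with the adipocyte score over all groups is −0.68.

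The genes most like Nat8l were named by rank, among 17355 genes, as a description. Over all 26 arrays these were Rere (r = 0.96), which encodes a transcriptional corepressor, Slc2a4 (0.95), the insulin-responsive glucose transporter GLUT4, Ccdc57 (0.94), the intramembrane protease gene Sppl2b (0.94) and the autophagy gene Atg9b (0.94). These points share the group differences. In deviations from group means, which remove them, the first were Ppp1r1a (0.88), an inhibitor of protein phosphatase 1, Dixdc1 (0.87), Rere (0.86), Pomt1 (0.86) and Cisd3 (0.86). Rere stood in both lists, and its log2 difference was −0.81 in total ChREBP KO mice and −0.29 in ChREBPβ KO mice. Among the partners, Got2 ranked 918 (r = 0.53) over all arrays, Got1 1974 (0.39), Slc25a13 3017 (0.30), Slc25a12 4313 (0.22) and Aspa 7400 (0.05). In deviations from group means Aspa ranked 2358 (0.43), whereas Got1 (15795), Slc25a13 (16271), Got2 (16295) and Slc25a12 (16643) stood near the negative end.

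Genes around the same metabolites were then counted in lists that leave Nat8l out, at 1 probe per gene. Over all genes, 25.8% were called higher and 20.1% lower in total ChREBP KO mice, with a median of 0.05. In the malate-aspartate shuttle all 7 genes were called, 4 lower and 3 higher. The lower ones were the members Got1, Got2, Slc25a12 and Slc25a13. The higher ones were the malate dehydrogenases Mdh2 (0.43, adjusted p = 8.22e-05) and Mdh1 (0.42, adjusted p = 0.000198) and the 2-oxoglutarate/malate carrier Slc25a11 (0.25, adjusted p = 0.000561). Among 8 tested genes of NAA handling, 3 rose and 0 fell, with a median of 0.03. Folh1, a peptidase that releases glutamate from N-acetylaspartylglutamate, rose by 0.71 (SE 0.17, adjusted p = 0.0013), although its probe was well above background on 20 of 26 arrays. The aminoacylases Acy3 (0.69, adjusted p = 1.97e-06) and Acy1 (0.40, adjusted p = 0.000919) rose as well. Between the WT groups, 6 of these 8 genes were called higher in the ChREBPβ line and 0 lower, with a median of 0.40. In that contrast 45.4% of all probes were called in either direction. There Folh1 was higher by 1.86 (adjusted p = 1.06e-08), Acy1 by 0.38 (adjusted p = 0.00131) and Acy3 by 0.25 (adjusted p = 0.0294).

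The lists of aspartate supply and use held genes that moved both ways in total ChREBP KO mice. Of 14 tested genes listed under supply and uptake, 5 rose and 5 fell, with a median of −0.01. Asparagine synthetase, Asns, which consumes aspartate, rose by 1.41 (SE 0.12, adjusted p = 1.85e-09), and the glutamate and aspartate transporters Slc1a1 and Slc1a3 rose by 0.96 (adjusted p = 6.07e-05) and 0.61 (adjusted p = 0.00158). The asparaginase gene Aspg had the largest difference of all listed genes, −3.98 (SE 0.41, adjusted p = 3.11e-08), from a mean of 14.01 in WT to 10.03. Between WT mice of the ChREBPβ and the total line its difference was −2.61 (adjusted p = 1.31e-05), and its difference in ChREBPβ KO mice was −1.93 (adjusted p = 0.175). Ucp2, a mitochondrial carrier, fell by 1.01 (adjusted p = 4.81e-05), and Slc1a2 fell by 0.97 (adjusted p = 0.00117), with its probe well above background on 19 of 26 arrays. Of 9 genes listed under aspartate use, not all of which act on aspartate itself, 2 rose and 2 fell. The D-aspartate oxidase gene Ddo fell by 2.06 (adjusted p = 2.37e-09), argininosuccinate synthase, Ass1, fell by 1.32 (adjusted p = 0.00252), and argininosuccinate lyase, Asl, rose by 0.35 (adjusted p = 5.45e-05). WT mice of the ChREBPβ line differed from those of the total line with the same signs. These differences were 0.61 for Asns, 0.74 for Slc1a3, −0.88 for Ucp2 and −0.93 for Slc1a2. They were −0.64 for Ddo, −1.02 for Ass1 and 0.18 for Asl, all with limma adjusted p below 0.05. Slc1a1 was not called there (0.17, adjusted p = 0.428). How far the KO differences share in the line difference was not tested.

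The other substrate of NAT8L is acetyl-CoA, and the genes called in its list all fell. Of 9 tested genes 7 fell and 0 rose in total ChREBP KO mice, with a median of −0.94. ATP citrate lyase, Acly, fell by 2.29 (SE 0.09, adjusted p = 4.13e-15), acetyl-CoA carboxylase, Acaca, fell by 2.02 (SE 0.11, adjusted p = 3.46e-13), and the mitochondrial citrate carrier Slc25a1 fell by 1.37 (adjusted p = 2.87e-06). Acly and Acaca are long-known ChREBP targets. Between the WT groups, 2 of these 9 genes were called lower in the ChREBPβ line and 0 higher, with a median of −0.18. With scaling to the 75th percentile 5 were called lower. In the main fit of that contrast 45.4% of all probes were called in either direction. In the family of Nat8-related acetyltransferases 5 of 14 listed genes were tested, and Cml1 (0.37, adjusted p = 0.00888) and Nat14 (0.19, adjusted p = 0.0327) rose, the latter not with scaling to the 75th percentile.

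In ChREBPβ KO mice 0 genes were called in each of these 6 lists, where only 0.0386% of all probes were called. The medians lay between −0.24, for acetyl-CoA and acetate, and 0.12, for NAA handling, against −0.002 over all genes. The citrate carrier Slc25a1 stood at −0.96 (adjusted p = 0.113), Dlat, a subunit of pyruvate dehydrogenase, at −0.65 (adjusted p = 0.136) and Ddo at −0.61 (adjusted p = 0.392).

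**Figure D4:**
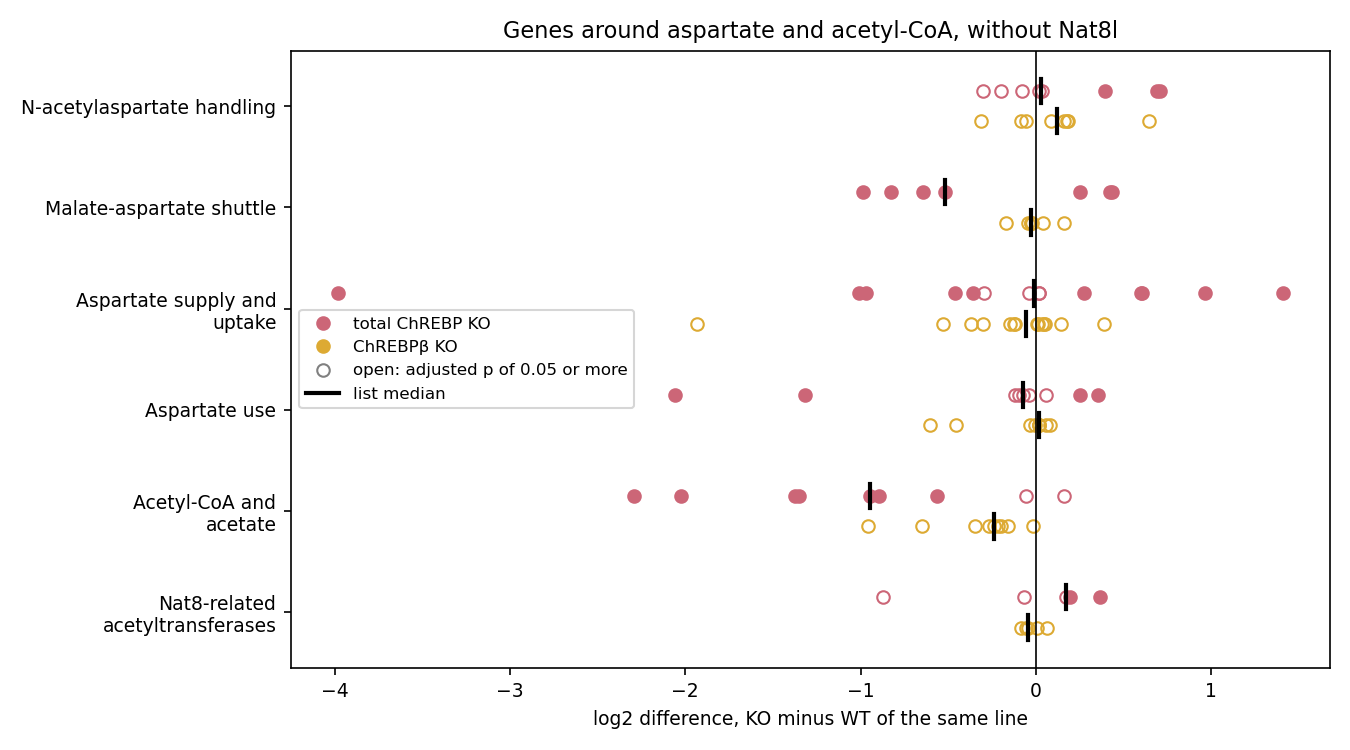
Log2 difference between KO and WT of the same line (x axis) for genes of 6 lists around NAA (y axis), 1 point per gene, filled where called and open where not, with a black bar at the list median. In total ChREBP KO mice the shuttle splits into 4 lower and 3 higher genes and the acetyl-CoA list has its median at −0.94. All ChREBPβ KO points are open, and 0.0386% of all probes were called in that comparison.

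The promoters of the carriers and of the aminotransferases were searched for CACGTG, the E-box that is part of the carbohydrate response element to which ChREBP binds. They were also searched for a pair of CACGNG boxes 5 bases apart, with both boxes on the same strand, whichever strand that was. The promoters of these 4 genes are shown because each gene was called lower in total ChREBP KO mice. For Slc25a13 this call was lost under 7 of 20 alternative settings. Each promoter is given as the 250 bases before the RefSeq gene start in GRCm38.p6, printed on the gene's strand with the E-box in capitals. RefSeq promoters were at hand for 5 of the 6 members, and Nat8l has none in the table. Slc25a13 lies at chr6:6217174-6217423, Slc25a12 at chr2:71367756-71368005, Got1 at chr19:43524606-43524855 and Got2 at chr8:95888402-95888651, all on the minus strand.
Slc25a13: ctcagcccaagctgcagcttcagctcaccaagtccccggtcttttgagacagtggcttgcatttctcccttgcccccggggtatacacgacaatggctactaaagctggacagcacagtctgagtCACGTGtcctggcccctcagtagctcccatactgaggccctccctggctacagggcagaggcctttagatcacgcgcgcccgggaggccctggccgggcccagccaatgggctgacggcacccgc
Slc25a12: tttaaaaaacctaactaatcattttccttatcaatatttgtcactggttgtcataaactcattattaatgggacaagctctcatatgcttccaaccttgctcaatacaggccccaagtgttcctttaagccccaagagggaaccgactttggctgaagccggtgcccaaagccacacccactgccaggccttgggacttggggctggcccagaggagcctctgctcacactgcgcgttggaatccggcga
Got1: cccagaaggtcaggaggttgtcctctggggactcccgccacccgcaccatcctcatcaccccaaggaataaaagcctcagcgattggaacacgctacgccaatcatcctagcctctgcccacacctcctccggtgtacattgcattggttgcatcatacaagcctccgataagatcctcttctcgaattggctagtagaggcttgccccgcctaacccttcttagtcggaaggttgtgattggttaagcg
Got2: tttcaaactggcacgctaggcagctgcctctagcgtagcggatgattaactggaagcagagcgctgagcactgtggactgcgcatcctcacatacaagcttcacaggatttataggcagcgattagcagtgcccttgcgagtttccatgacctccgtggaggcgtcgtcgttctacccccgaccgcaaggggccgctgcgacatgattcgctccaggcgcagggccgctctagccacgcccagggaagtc
CACGTG occurred once, in the Slc25a13 promoter, starting 125 bases before the gene start, and the paired boxes in 0 of the 5. Of 32851 promoters of the same length, 1978 (6.02%) held CACGTG and 15 (0.0457%) the paired boxes. A match marks letters only, and windows of 250 bases leave out sites further away. Pairs with the boxes on opposite strands were not searched, so the counts of paired boxes do not cover them.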

How the data were processed

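The labels put 26 arrays of single mice in 4 groups (7, 7, 5 and 7). The authors scanned the arrays with Agilent Feature Extraction 10.10.1.1, and the deposited scanner files hold linear intensity values with spot calls. A second deposited file holds log2 values, which the authors made by quality filtering, quantile normalization and medians of replicated probes, and which served as an alternative.

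Median pixel intensities were taken with no background correction. The filter kept probes that were found, passed the significance call and stood well above background on 21 or more of the 26 arrays or on 75% of the arrays of 1 group, the published filter scaled to 26 arrays. Outlier spots (97 values) were set to missing, replicate spots were resolved by their median on the log2 scale and arrays were quantile normalized. The methods give the last steps in the reverse order, which lay further from the deposited table. One mean per group was fitted to all arrays with limma 3.58.1 in R 4.3.3. P-values were adjusted by Benjamini-Hochberg over 38832 probes and called at 0.05, and the fit was tested on simulated data. Adjusted p-values are from limma unless a permutation (100000 resamples) is named. The brightest probe stood for a gene with several. The number of arrays limits the precision.

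The members, gene lists and tests were chosen with earlier results of these data known. All probes of the 6 genes, Mlxipl, the 5 genes most like Nat8l by either measure, and the 3 largest called changes per list and direction in total ChREBP KO were to be named. The list genes given for ChREBPβ KO (Slc25a1, Dlat, Ddo, Aspg) were picked after their values were seen. The values of 1 called list gene are not reported here. Marker lists of macrophages, endothelium, epithelium, and nerve and glia were scored too. In total ChREBP KO, 4 of 10 macrophage markers were lower, 3 of 5 endothelial markers higher, 0 of 4 epithelial markers changed, and 1 of 8 nerve markers was higher and 1 lower. Alternatives were the deposited table, other scalings, background correction and filters, slide, wash batch, scan day and replicate number as blocks, array weights, marker scores as covariates, and each mouse left out.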

Additional observations from a re-analysis of the deposited data

Results flagged for a closer look

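Among 52 sets of a probe and a group tested by Dixon's criterion, 2 held an array far from the others, and chance flags about 1 in 20. ChREBPβ KO replicate 4 read 10.25 at the brightest Slc25a12 probe, with the next mouse at 9.57. Total ChREBP KO replicate 7 read 7.03 at Slc25a12 probe A_55_P2731241, with the next at 6.57.

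The effect of losing ChREBPβ and the effect of losing both isoforms differed by an interaction term at 6 probes. The differences were 1.15 for Got2, 0.66, 0.52 and 0.50 for the 3 Got1 probes, and 0.55 and 0.50 for Slc25a12 probes A_52_P1196751 and A_66_P134400, with limma adjusted p between 5.36e-05 and 0.0453. Got2 differed at this threshold under all 19 alternatives.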

How the results depend on the processing

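Under the 20 alternatives the partner genes had 0 calls in ChREBPβ KO mice, as with each mouse left out. Over all probes this comparison had 0 to 60 calls under these alternatives and 2 to 106 with 1 mouse left out. The 9 calls in total ChREBP KO mice became 5 with slide as a fixed block, 4 with muscle and lymphocyte scores as covariates and 2 on scan day 1, where 3 WT mice faced 3 KO mice, and 8 to 9 with 1 mouse left out. The 6 calls of the interaction, which could not be fitted with only the groups compared and so had 19 alternatives, became 1 with slide as a fixed block, 1 with both scores, 1 on day 1 and 1 without 12 muscle-rich arrays, and 2 to 7 with 1 mouse left out. The 9 calls between WT groups became 0 with both scores, 5 with the thermogenic score and 3 on day 1, and 6 to 9 with 1 mouse left out. Over all 38832 probes the calls fell too. In total ChREBP KO they went from 17667 to 8432 with slide as a fixed block, 5487 with both scores and 5199 on day 1. Those of the interaction went from 8755 to 616 with slide, 2271 with both scores, 948 on day 1 and 3079 without muscle-rich arrays. Between WT groups they went from 17644 to 1245 with both scores, 11039 with the thermogenic score and 7268 on day 1. The cause was not tested. Without the 12 muscle-rich arrays, 2 KO and 5 WT mice were left in the total line, and 3 KO and 4 WT mice in the ChREBPβ line.

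For Nat8l, which these arrays had chosen, the ranges are a description only. The Nat8l difference was −1.24 with the thermogenic score, and its interaction 1.07 on day 1. With 1 mouse left out Nat8l ran from −1.61 to −1.47 in total ChREBP KO mice, from −0.995 to −0.79 in ChREBPβ KO mice and from 0.55 to 0.76 in the interaction. The 4 passing correlations became 10 with the median intensity and 11 with the processed signal scaled to the 75th percentile, and 2 to 9 with 1 mouse left out (9 without total ChREBP KO replicate 2 or ChREBPβ KO replicate 6, 7 without ChREBPβ KO replicate 5, and 2 without KO replicate 4, 5 or 8 of the total line or WT replicate 1, 4 or 8 of the ChREBPβ line).

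Among the brightest probes, signs turned only for differences that were not called. Aspa in total ChREBP KO mice was −0.00277 with normexp, −0.013 with the replicate block, −0.00367 with the muscle score, −0.24 with both scores and −0.20 on day 1, and Aspa in ChREBPβ KO mice was 0.00075 without muscle-rich arrays. Its interaction was 0.17 with both scores and 0.13 on day 1, and its WT contrast 0.30 with the thermogenic score. Slc25a12 in ChREBPβ KO mice was −0.026 with array weights, −0.081 with the thermogenic score, −0.17 on day 1 and −0.092 without muscle-rich arrays. Slc25a13 in ChREBPβ KO mice was 0.017 with the median intensity scaled to the 75th percentile and 0.16 on day 2, its WT contrast 0.016 with slide as a fixed block, 0.54 with both scores and 0.29 on day 1, and its interaction −0.35 on day 1. The WT contrast of Nat8l was −0.13 on day 1. With 1 mouse left out Aspa in total ChREBP KO mice ran from −0.036 to 0.065, Slc25a12 in ChREBPβ KO mice from −0.13 to 0.10, Slc25a13 there from −0.28 to 0.10 and its WT contrast from −0.30 to 0.016. The r of Aspa, Got1 and Got2 with muscle ran from −0.0097 to 0.24, −0.11 to 0.30 and −0.098 to 0.20, and that of Got1 with the thermogenic score from −0.11 to 0.30.

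Replicate numbers were not taken as pairs in the main fit. Of the same-numbered pairs, 3 of 6 in the total line (r from −0.36 to 0.51) and 1 of 4 in the ChREBPβ line (r from −0.33 to 0.14) correlated above 0.1. Pairs with unlike numbers were not compared, so whether the numbers pair the mice was not tested. With the replicate block the calls were 8, 0, 4 and 8 in the 4 comparisons, against 15954, 6, 8032 and 16602 over all probes. Slc25a13 in total ChREBP KO mice then gave −0.59 (adjusted p = 0.062). The 75th-percentile scaling of median intensity moved the median of all probes between the WT groups from 0.03 to −0.11, and with it the NAA handling list from 6 genes higher to 3.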
